A study of Homo sapiens with 12 samples.

Results

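The gene set described here holds 35 genes of glycolysis and of the response to low oxygen, taken by symbol from a table of 56609 gene symbols. All 35 symbols were found, each in a single row, and all 35 were abundant enough to be tested. They are 15 glycolytic enzymes, 2 lactate dehydrogenase subunits, 4 carriers of glucose or lactate, 2 pyruvate dehydrogenase kinases, 2 regulators of phosphofructokinase, 2 hypoxia-inducible factor subunits and 8 genes known to respond to hypoxia. RNA was sequenced from A375, an established human line derived from a malignant melanoma of the skin. Cells were either wild type or carried a CRISPR/Cas9 knockout of MAPKAPK2, the gene for MK2, a kinase that acts below p38 in stress signalling. Each genotype was kept for 48 h with DMSO, the solvent control, or with 500 nM JQ1, which displaces BET proteins from acetylated chromatin. The 4 groups of 3 libraries were therefore wild-type DMSO, wild-type JQ1, knockout DMSO and knockout JQ1. The sample titles name the cultures without drug as untreated while their treatment field gives DMSO, and that field was followed. The labels do not say whether the knockout is a single clone or a pool, or whether replicates were separate cultures, so p-values measure the spread between these libraries, which may be technical. Whether a difference between genotypes comes from the loss of MAPKAPK2 or from how the knockout cells were derived was not tested. The labels name no low-oxygen treatment, and the stated aim of the series was to learn how losing MAPKAPK2 makes cells resist BET inhibition.

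Glycolysis splits glucose into pyruvate in the cytosol and yields ATP without oxygen; lactate dehydrogenase then turns pyruvate into lactate, which leaves the cell through monocarboxylate carriers. When oxygen is short, the alpha subunits of the hypoxia-inducible factors (HIF) escape hydroxylation and destruction, pair with ARNT and bind DNA at hypoxia response elements, whose core is often ACGTG. Many glycolytic genes, the glucose carrier SLC2A1, the pyruvate dehydrogenase kinase PDK1, CA9 and BNIP3 are textbook targets, and melanoma lines are known for active glycolysis also in air.

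The libraries held 25316565 to 34594025 counts. CPM below are counts per 1000000 of the library after TMM scaling. MAPKAPK2 itself was at 87.9 to 92.1 CPM in wild-type DMSO and at 11.1 to 13.2 CPM in knockout DMSO, and at 112 to 120 against 12.6 to 15.7 CPM with JQ1. It was 2.85 ± 0.09 (SE) lower on the log2 scale in knockout DMSO, with edgeR's quasi-likelihood adjusted p = 3.6e-11. Of the melanoma line markers, SOX10, S100B, MITF and AXL were present while the pigment genes PMEL, MLANA, TYR and DCT were at most at 1.45 CPM. The remaining melanoma marker, NGFR, was at 1.28 to 9.14 CPM. The summed level of 9 such markers was 640 to 777 CPM with DMSO and 930 to 1212 CPM with JQ1. Sums of markers for keratinocytes, fibroblasts, endothelium, leukocytes and epithelium were each at most 17.8 CPM, with KRT1 and CDH1 at 0 in all libraries. Knockout JQ1 replicate 3 stood apart: the chi-square per degree of freedom of its counts against the other replicates of its group was 26.1 and 27.5, against 3.35 to 7.64 for all other replicate pairs. Results that rest on it are given with and without it.

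Sequences just before the starts of some members are printed below as examples. RefSeq promoter windows on GRCh38.p14 were at hand for 31 of the 35 members, and the 250 bases before the start were searched on both strands for ACGTG. It was present in 13 of 31 member windows (41.9%) and in 5101 of 27305 windows of all genes (18.7%). The palindrome CACGTG, which is also read by MYC and related factors and counts as a match on each strand, was present in 4 of 31 member windows (12.9%) and 6.5% of all windows. The 3 windows printed next belong to genes that were lower in the knockout, CA9 (chr9:35673678-35673927, plus strand), BNIP3 (chr10:131981924-131982173, minus strand) and ENO2 (chr12:6914330-6914579, plus strand). Each is written along its gene and ends at the base before the start. Capitals mark ACGTG on either strand.
CA9: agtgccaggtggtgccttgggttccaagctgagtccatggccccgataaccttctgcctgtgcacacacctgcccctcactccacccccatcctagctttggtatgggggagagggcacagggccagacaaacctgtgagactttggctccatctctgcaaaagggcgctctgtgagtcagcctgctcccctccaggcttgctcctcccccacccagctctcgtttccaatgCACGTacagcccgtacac
BNIP3: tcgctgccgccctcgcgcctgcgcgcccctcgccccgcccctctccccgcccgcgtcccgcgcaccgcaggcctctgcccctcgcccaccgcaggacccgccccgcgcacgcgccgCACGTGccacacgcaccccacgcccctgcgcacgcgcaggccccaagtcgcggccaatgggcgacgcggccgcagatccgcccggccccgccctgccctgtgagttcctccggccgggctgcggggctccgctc
ENO2: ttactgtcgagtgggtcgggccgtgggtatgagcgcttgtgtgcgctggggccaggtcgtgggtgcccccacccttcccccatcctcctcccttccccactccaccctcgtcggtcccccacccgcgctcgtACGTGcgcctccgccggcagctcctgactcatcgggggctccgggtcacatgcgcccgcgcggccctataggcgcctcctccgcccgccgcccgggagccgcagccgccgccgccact
In CA9 the single match began 18 bases before the start, and in ENO2 118 bases before it. In BNIP3 the palindrome covered matches that began 134 and 133 bases before the start. The next 3 windows belong to genes that rose with JQ1 in either genotype: LDHA (chr11:18394313-18394562, plus strand), GAPDH (chr12:6535014-6535263, plus strand) and PFKFB4 (chr3:48556804-48557053, minus strand).
LDHA: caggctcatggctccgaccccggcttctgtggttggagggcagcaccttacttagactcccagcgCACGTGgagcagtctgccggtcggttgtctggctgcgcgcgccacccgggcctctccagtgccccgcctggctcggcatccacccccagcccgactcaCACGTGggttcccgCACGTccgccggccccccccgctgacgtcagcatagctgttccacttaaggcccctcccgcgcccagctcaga
GAPDH: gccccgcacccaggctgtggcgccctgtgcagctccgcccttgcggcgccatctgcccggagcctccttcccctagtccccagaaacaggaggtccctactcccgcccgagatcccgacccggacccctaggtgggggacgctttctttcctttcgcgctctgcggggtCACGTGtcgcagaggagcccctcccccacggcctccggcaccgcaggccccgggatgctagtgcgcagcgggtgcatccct
PFKFB4: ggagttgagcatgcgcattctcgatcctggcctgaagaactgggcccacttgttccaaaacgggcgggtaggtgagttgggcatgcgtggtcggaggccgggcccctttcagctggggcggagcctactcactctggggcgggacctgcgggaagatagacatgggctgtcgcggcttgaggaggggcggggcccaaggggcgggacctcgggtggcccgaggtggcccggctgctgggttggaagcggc
LDHA held the palindrome at 2 places and a further match between the second and the start, GAPDH held it at 1 place, and the window of PFKFB4 held no match. PFKFB4 was also lower in the knockout, and BNIP3 and ENO2 also rose with JQ1 in both genotypes. Of the other members that rose in both genotypes, ALDOA, ALDOC, GPI, P4HA1, PDK3 and PGK1 held a match. ADM, ENO1, EPAS1, HIF1A, PFKL, PFKP, PGAM1, PKM, SLC2A1 and TPI1 held none, and SLC2A3, SLC16A1, BNIP3L and NDRG1 had no window. Of the members that fell with JQ1 in both genotypes, KDELR3 held a match and PFKFB3 none. Of the other members called lower in the knockout in either treatment, HK2 and ALDOC held a match, EGLN3, PDK1 and HIF1A held none, and NDRG1 had no window. PFKFB4 gave the highest fold change of the members with JQ1, as described below. GCGTG, which differs from ACGTG in its first base, was counted as well and is not marked. Among the printed windows and those of members lower in the knockout, BNIP3 held 4, ALDOC 2, and PFKFB4, HIF1A and HK2 1 each. CA9, ENO2, LDHA, GAPDH, EGLN3 and PDK1 held none. A match is a description of the letters and not of a bound site.

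The members differed widely in level. Per kilobase of transcript in wild-type DMSO, GAPDH was highest at 1988 CPM, followed by ENO1 at 1267, PKM at 601, TPI1 at 525 and LDHB at 515 CPM. TPI1 and LDHB also lay close together per kilobase in knockout DMSO, at 498 and 562 CPM, in the opposite order. EGLN3 and EPAS1 were lowest, at 0.223 and 0.261 CPM per kilobase, and ADM and SLC16A3 followed at 2.07 and 2.55 CPM per kilobase. HIF1A was at 63.4 CPM per kilobase in the same libraries, far above EPAS1. The 35 genes together took 1.40 to 1.45% of the counts of each DMSO library and 2.10 to 2.17% of each JQ1 library.

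JQ1 was followed by higher RNA of most of glycolysis in both genotypes. In wild-type cells 27 of 35 members passed the test, 25 higher and 2 lower, whereas over all 21698 tested genes 33.1% passed, 16.9% higher and 16.2% lower. In knockout cells 30 of 35 members passed, 26 higher and 4 lower, against 34.4% of all genes, 16.7% higher and 17.8% lower. The median log2 fold change of the members was 0.51 in wild type and 0.44 in knockout, and that of all tested genes was −0.03 and −0.0035. In wild type 26 members had all 3 JQ1 libraries above all 3 DMSO libraries and 4 had them all below, against 24.4% and 26% of all genes; in knockout the numbers were 26 and 4, against 20.3% and 22%. RNA was measured in bulk and relative to the library total, so fewer cells with a gene active and less of its RNA per cell cannot be told apart. When libraries were scaled by their totals alone, the median of all genes fell to −0.16 in wild type and −0.12 in knockout, and the members' medians to 0.38 and 0.33. Calls over all genes then split into 2298 higher and 5368 lower in wild type, against 3665 and 3522 with TMM scaling, and into 2409 and 5250 in knockout, against 3616 and 3856.

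**Figure D1:**
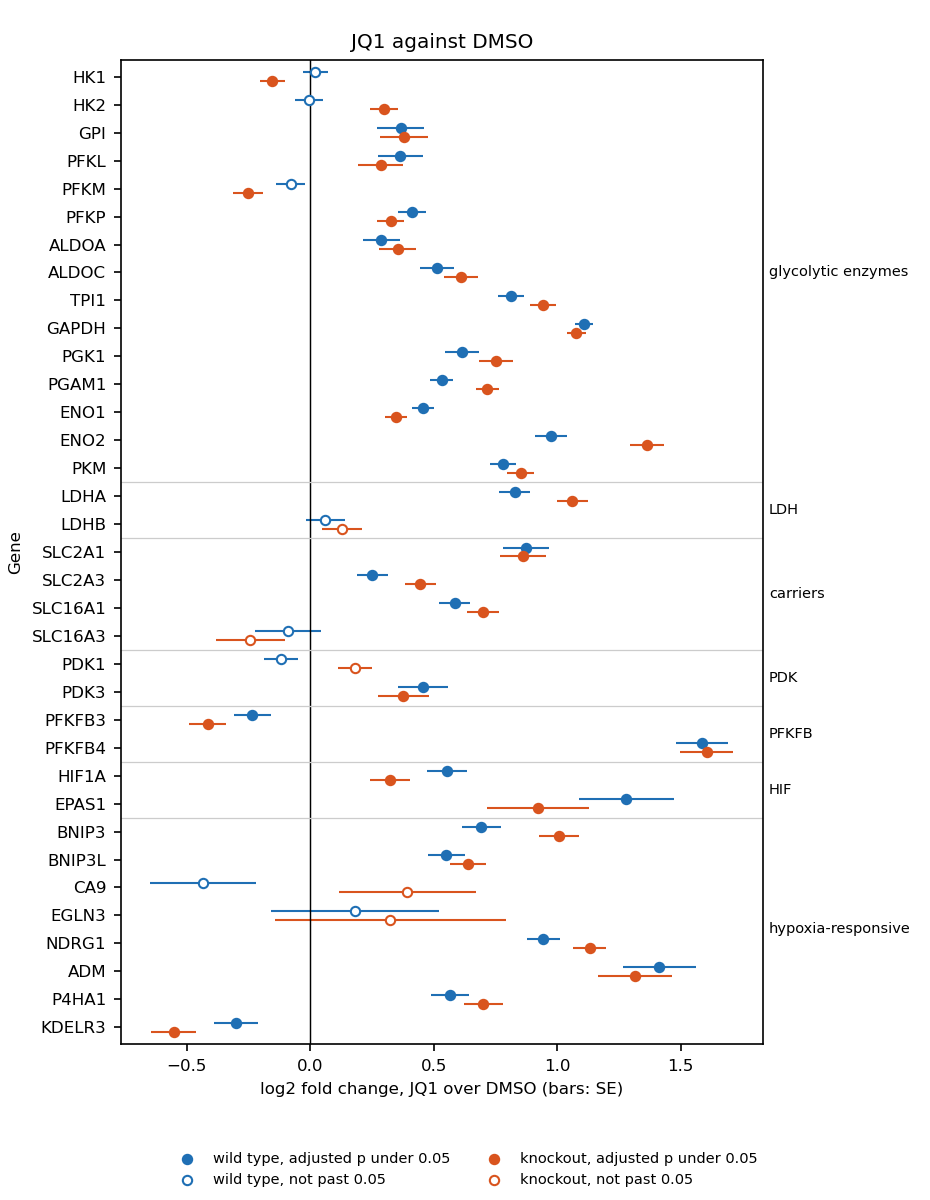
Log2 fold change of JQ1 over DMSO (horizontal axis) for each of the 35 genes (vertical axis, grouped by role) in wild type (blue) and knockout (orange), with SE bars and filled points for adjusted p under 0.05. Most points lie right of 0, from 0.25 to 1.60 for the genes called higher. PFKFB3, KDELR3, PFKM and SLC16A3 lie left of 0 in both genotypes, PFKFB3 and KDELR3 called in both and PFKM in knockout only.

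GAPDH, which makes the first high-energy phosphate of the pathway, was at 3756, 3715 and 3710 CPM in wild-type DMSO and at 8050, 8078 and 7951 CPM in wild-type JQ1. In the knockout it was at 3860, 3787 and 3639 CPM with DMSO and at 8006, 7979 and 7832 CPM with JQ1. The JQ1 libraries were thus about level between genotypes and far above every DMSO library. The rise was 2.15-fold in wild type (log2 fold change 1.11 ± 0.04 SE, edgeR quasi-likelihood adjusted p = 7.37e-11) and 2.11-fold in knockout (1.08 ± 0.04, adjusted p = 6.44e-11). Pseudogene symbols of GAPDH, 62 in the table, held at most 0.385% of the counts that they and GAPDH took together.

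ENO2, the enolase typical of neurons, was at 45.5, 47.2 and 49.2 CPM in wild-type DMSO and rose to 93.7, 94.9 and 90.2 CPM with JQ1. In knockout cells it started lower, at 32.0, 33.0 and 34.3 CPM, and reached 80.9, 81.0 and 93.3 CPM. With DMSO the genotypes did not overlap. With JQ1 they overlapped only through knockout replicate 3, the library that stood apart, and without it ENO2 was lower in knockout JQ1 by 0.20 (edgeR adjusted p = 0.0264). Its log2 fold change with JQ1 was 0.97 ± 0.07 in wild type and 1.36 ± 0.07 in knockout, with edgeR adjusted p = 6.33e-08 and 2.05e-09. ENO1, the ubiquitous enolase, was at 3024, 2846 and 3044 CPM in wild-type DMSO and at 4159, 4151 and 3929 CPM in wild-type JQ1. In the knockout it was at 3456, 3248 and 3431 CPM with DMSO and at 4357, 4177 and 4362 CPM with JQ1. All ENO1 libraries with JQ1 lay above all with DMSO, and the rises were 0.46 ± 0.04 and 0.35 ± 0.04 on the log2 scale.

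Triose phosphate isomerase (TPI1), pyruvate kinase (PKM), phosphoglycerate kinase (PGK1) and phosphoglycerate mutase (PGAM1) also rose in both genotypes. Their log2 fold changes in wild type were 0.81, 0.78, 0.62 and 0.53, and in knockout 0.94, 0.85, 0.75 and 0.72. Of the upper enzymes, glucose phosphate isomerase (GPI), the phosphofructokinase subunits PFKL and PFKP, and the aldolases ALDOA and ALDOC rose by 0.29 to 0.51 on the log2 scale in wild type and by 0.28 to 0.61 in knockout. The PFKL call in knockout was lost under 5 of 22 alternatives, among them without knockout JQ1 replicate 3 (log2 fold change 0.17, edgeR adjusted p = 0.102). With library totals alone, GPI and ALDOA in wild type and PFKL in knockout missed the threshold.

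HK1, HK2 and the muscle phosphofructokinase subunit PFKM did not pass with JQ1 in wild type, and in knockout HK2 rose while HK1 and PFKM fell. HK1, the broadly expressed hexokinase, was at 212, 211 and 215 CPM in wild-type DMSO, and at 223, 219 and 205 CPM with JQ1. Knockout libraries were at 253, 252 and 259 CPM with DMSO and at 224, 221 and 242 CPM with JQ1. It fell by 0.15 ± 0.05 on the log2 scale in knockout (edgeR adjusted p = 0.0302, lost under 8 of 22 alternatives), and its wild-type groups overlapped, with a log2 fold change of 0.02 ± 0.05. HK2, the inducible hexokinase, had a log2 fold change of −0.01 ± 0.06 in wild type and rose by 0.30 ± 0.06 in knockout (adjusted p = 0.000872). PFKM was at 104, 106 and 101 CPM in wild-type DMSO, 100, 100 and 94.5 CPM in wild-type JQ1, 111, 110 and 123 CPM in knockout DMSO and 98.6, 90.9 and 99.7 CPM in knockout JQ1. Every PFKM library with JQ1 lay below every DMSO library of its genotype. The fall was 0.25 ± 0.06 in knockout (edgeR adjusted p = 0.00391), and the wild-type difference was −0.08 ± 0.06 (adjusted p = 0.338). The knockout call was lost under 2 of 22 alternatives, those that used the authors' normalized signal.

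LDHA, the lactate dehydrogenase subunit that favours lactate formation, was at 606, 551 and 602 CPM in wild-type DMSO and at 1033, 1012 and 1079 CPM in wild-type JQ1. Knockout levels were 558, 486 and 503 CPM with DMSO and at 1142, 1066 and 1020 CPM with JQ1. Every JQ1 library lay above every DMSO library, and the rise was 0.83 ± 0.06 in wild type and 1.06 ± 0.06 in knockout (edgeR adjusted p = 1.84e-07 and 1.19e-08). LDHB, the subunit that predominates in heart, was at 788, 775 and 811 CPM in wild-type DMSO and at 816, 827 and 834 CPM in wild-type JQ1. It was at 915, 846 and 830 CPM in knockout DMSO and at 1079, 953 and 801 CPM in knockout JQ1, where the last value belongs to the replicate that stood apart. Its differences with JQ1 were 0.06 ± 0.08 and 0.13 ± 0.08 and did not pass; without that replicate the knockout difference was 0.24 with edgeR adjusted p = 0.00324. The ratio of LDHA to LDHB counts moved from 0.741 ± 0.03 (SD, n = 3) to 1.26 ± 0.03 with JQ1 in wild type and from 0.597 ± 0.02 to 1.15 ± 0.11 in knockout.

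**Figure D2:**
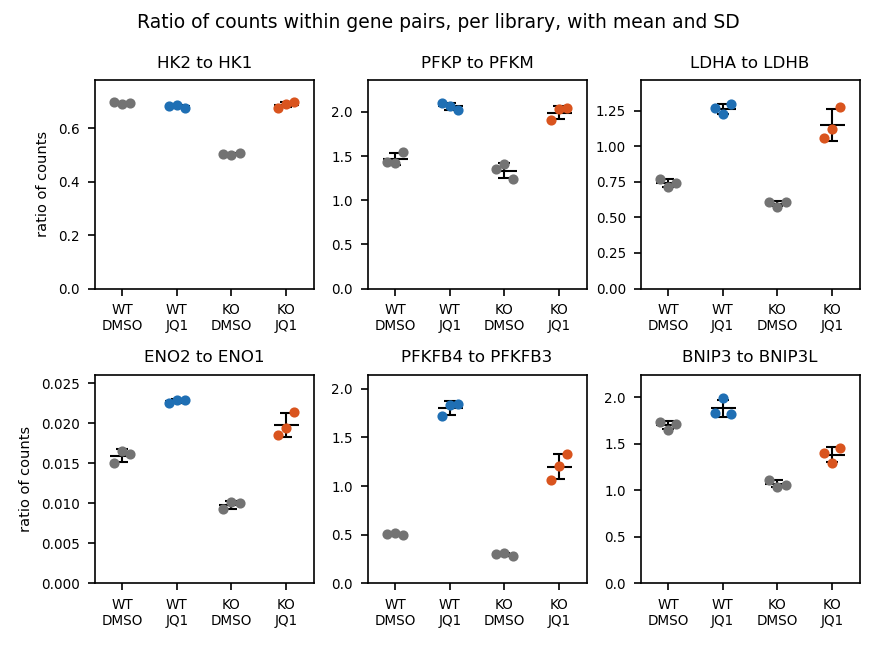
Ratio of counts (vertical axis, not adjusted for gene length) within 6 pairs of related genes in each library of the 4 groups (horizontal axis), as points with mean and SD. The ratios of LDHA to LDHB, ENO2 to ENO1 and PFKFB4 to PFKFB3 were higher in every JQ1 library than in every DMSO library of the same genotype, and the HK2 to HK1 ratio was lowest in knockout DMSO, at 0.504.

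SLC2A1, the basal glucose carrier, was at 40.1, 40.5 and 44.9 CPM in wild-type DMSO and at 80.6, 81.2 and 68.1 CPM in wild-type JQ1. Knockout libraries were at 35.1, 38.9 and 39.5 CPM with DMSO and at 67.5, 61.3 and 77.2 CPM with JQ1. Every JQ1 library lay above every DMSO library. The log2 fold changes were 0.87 ± 0.09 and 0.86 ± 0.09, with edgeR adjusted p = 5.23e-06 and 5.32e-06. SLC2A3, a high-affinity glucose carrier, rose by 0.25 and 0.44, and SLC16A1, which carries lactate and pyruvate, by 0.58 and 0.70. SLC16A3, the carrier associated with lactate export from glycolytic cells, was low, at 7.92 to 14.0 CPM over the 12 libraries, and differed by −0.09 ± 0.13 and −0.24 ± 0.14, neither of which passed. The antisense symbol of SLC16A1 held 1.94 to 5.64% of the summed counts of the pair.

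The enzymes that set the flow through phosphofructokinase moved in opposite directions. PFKFB4, a bifunctional enzyme that makes and breaks the sugar bisphosphate activating phosphofructokinase, was at 54.1, 56.2 and 54.6 CPM in wild-type DMSO and at 167, 173 and 155 CPM with JQ1. In the knockout it went from 36.3, 40.0 and 37.4 CPM to 96.9, 107 and 141 CPM. The groups did not overlap, and JQ1 gave a 3.00-fold rise in wild type (log2 fold change 1.58 ± 0.11, edgeR adjusted p = 5.72e-08) and 3.04-fold in knockout (1.60 ± 0.11, adjusted p = 4.39e-08). PFKFB3, the form with high kinase activity, was at 106, 108 and 109 CPM in wild-type DMSO and at 97.1, 94.0 and 84.3 CPM with JQ1. It went from 120, 127 and 135 CPM to 91.0, 88.7 and 107 CPM in the knockout. All PFKFB3 libraries with JQ1 lay below the DMSO libraries of their genotype, with falls of 0.23 ± 0.08 (adjusted p = 0.0264) and 0.42 ± 0.08 (adjusted p = 0.000553). The wild-type fall missed the threshold under 8 of 22 alternative analyses. The ratio of PFKFB4 to PFKFB3 counts went from 0.509 to 1.80 in wild type and from 0.298 to 1.20 in knockout (means, n = 3).

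Of the kinases that switch off pyruvate dehydrogenase, PDK3 rose by 0.46 ± 0.10 in wild type and 0.38 ± 0.10 in knockout (edgeR adjusted p = 0.00272 and 0.0102). The PDK3 call in knockout was lost under 4 of 22 alternatives. PDK1 differed by −0.12 ± 0.07 and 0.18 ± 0.07, with adjusted p = 0.216 and 0.0591. The knockout difference passed without knockout JQ1 replicate 3 (0.20, edgeR adjusted p = 0.0388). It also passed without knockout DMSO replicate 1 and without wild-type JQ1 replicate 3.

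Both HIF alpha subunits were higher with JQ1. HIF1A was at 264, 238 and 243 CPM in wild-type DMSO and at 351, 357 and 386 CPM in wild-type JQ1, which did not overlap. In the knockout it was at 234, 204 and 207 CPM with DMSO and at 294, 280 and 234 CPM with JQ1, where the lowest JQ1 library, replicate 3, and the highest DMSO library met at 234 CPM. The rise was 0.55 ± 0.08 in wild type and 0.32 ± 0.08 in knockout (edgeR adjusted p = 9.82e-05 and 0.00639). EPAS1, which encodes HIF-2 alpha, was at 1.40, 1.35 and 1.29 CPM in wild-type DMSO, 3.52, 3.19 and 3.11 CPM in wild-type JQ1, 0.834, 1.58 and 1.16 CPM in knockout DMSO and 1.94, 2.43 and 2.37 CPM in knockout JQ1. Its JQ1 libraries lay above the DMSO libraries of each genotype, with log2 fold changes of 1.28 ± 0.19 and 0.92 ± 0.21 (adjusted p = 0.00013 and 0.00269). HIF activity is set mainly by protein stability, which these data do not measure.

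Of the 8 hypoxia-responsive genes, 5 were higher and 1 lower with JQ1 in each genotype, against 16.9% and 16.2% of all genes in wild type and 16.7% and 17.8% in knockout. ADM, which encodes the vasodilator peptide adrenomedullin, was at 2.92, 4.60 and 4.23 CPM in wild-type DMSO and at 9.92, 11.3 and 10.1 CPM in wild-type JQ1. It went from 3.82, 3.98 and 4.99 CPM to 10.4, 10.4 and 10.9 CPM in the knockout. No JQ1 library came near the DMSO range, and the log2 fold changes were 1.41 ± 0.15 and 1.31 ± 0.15 (edgeR adjusted p = 4.93e-06 and 8.4e-06). The mitophagy receptor BNIP3L rose by 0.55 and 0.64, and P4HA1, a catalytic subunit of collagen prolyl hydroxylase, by 0.57 and 0.70. KDELR3, a receptor that returns proteins to the endoplasmic reticulum, was at 24.0, 24.8 and 24.5 CPM in wild-type DMSO, 19.1, 19.1 and 21.2 CPM in wild-type JQ1, 28.3, 24.7 and 28.1 CPM in knockout DMSO and 20.7, 18.1 and 16.4 CPM in knockout JQ1. It was lower in every JQ1 library, by 0.30 ± 0.09 in wild type (adjusted p = 0.0178, lost under 8 of 22 alternatives) and 0.55 ± 0.09 in knockout (adjusted p = 0.000225).

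**Figure D3:**
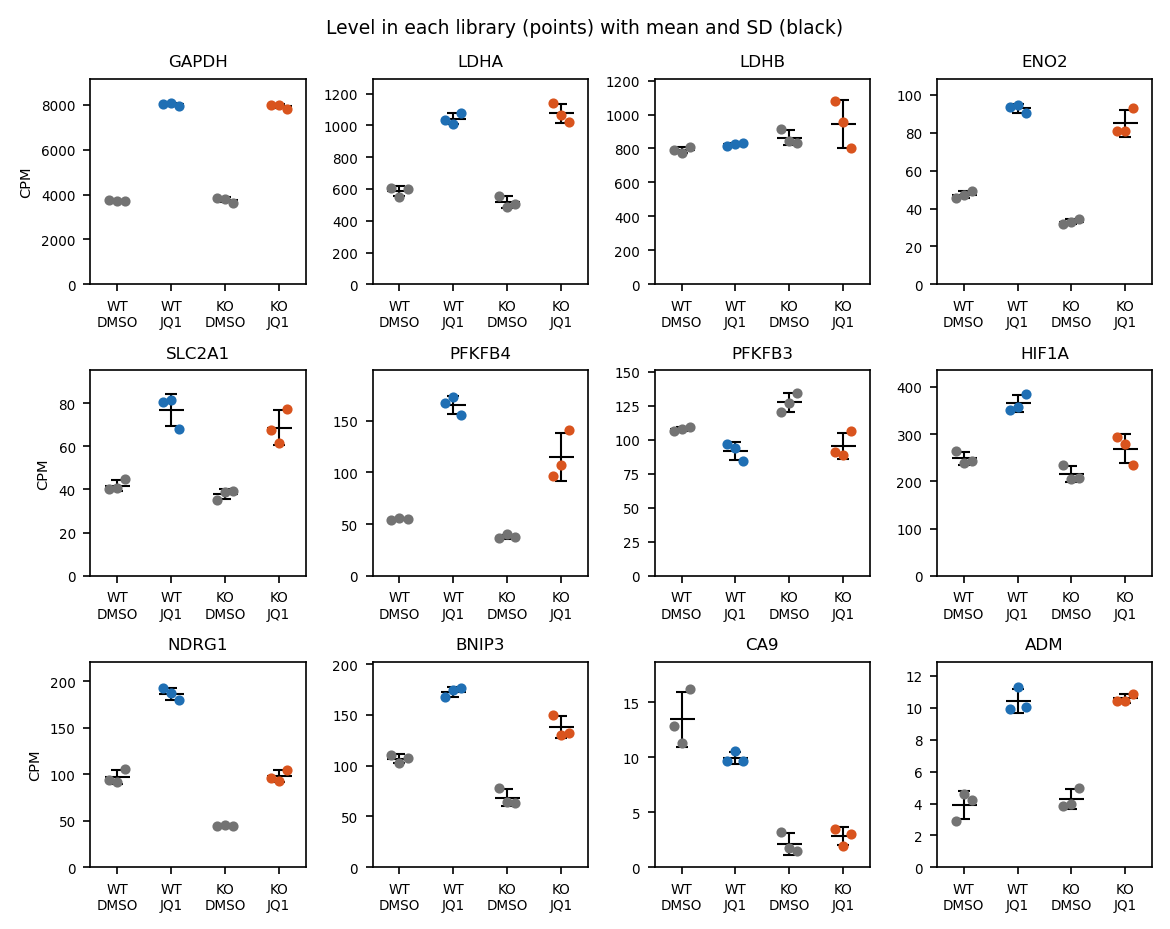
Level in CPM (vertical axes from 0) of 12 genes in each library of the 4 groups (horizontal axis), with mean and SD. GAPDH, LDHA, SLC2A1 and ADM separate by drug, CA9 separates by genotype, and PFKFB4, NDRG1 and BNIP3 differ by both.

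Fewer members differed between knockout and wild type, and mostly downward. In DMSO 11 of 35 members passed the test between knockout and wild type, 2 higher and 9 lower, against 7.92% of all genes, 3.47% higher and 4.44% lower. In JQ1 6 of 35 passed, none of them higher and 6 lower, against 8.57% of all genes, 3.01% higher and 5.56% lower. The members' median log2 fold change was −0.07 in DMSO and −0.03 in JQ1, medians over genes that went both ways. The 3 libraries of each group did not overlap for 5 members higher and 12 lower in DMSO, against 14.8% and 14.7% of all genes, and for 4 higher and 11 lower in JQ1, against 10.7% and 12.4%. No enzyme of glycolysis and neither lactate dehydrogenase gene passed in JQ1 in the main edgeR fit. With DESeq2, ALDOC (−0.21, adjusted p = 0.0401) and PGAM1 (0.16, adjusted p = 0.0107) passed in JQ1. The contrasts between genotypes share libraries with the JQ1 contrasts above, so their values are given side by side only. Without knockout JQ1 replicate 3, 10 members passed in JQ1: ALDOC (−0.23), ENO2 (−0.20), LDHB (0.30), SLC2A3 (0.22) and SLC16A3 (−0.50) were added and EGLN3 was lost. In DMSO 15 then passed, with PGK1, LDHA, PFKFB3 and HIF1A added. All groups share an estimate of spread, and the cause of these added calls was not tested.

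CA9, the carbonic anhydrase that acidifies the cell surface and one of the most used markers of HIF activity, was at 12.9, 11.3 and 16.2 CPM in wild-type DMSO and at 3.24, 1.72 and 1.44 CPM in knockout DMSO. With JQ1 it was at 9.67, 10.6 and 9.64 CPM in wild type and at 3.50, 1.91 and 3.01 CPM in knockout. No knockout library reached the lowest wild-type library in either treatment. The gene was 6.27-fold lower in knockout DMSO (log2 fold change −2.65 ± 0.25, edgeR adjusted p = 6.93e-06) and 3.53-fold lower in knockout JQ1 (−1.82 ± 0.24, adjusted p = 0.000203). With JQ1 it differed by −0.44 ± 0.21 in wild type and 0.39 ± 0.28 in knockout, neither of which passed. The wild-type difference passed under 3 of 22 alternatives and the knockout difference without knockout DMSO replicate 1 (0.84, adjusted p = 0.0224).

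NDRG1, a stress-induced gene strongly raised by hypoxia, was at 94.2, 91.2 and 106 CPM in wild-type DMSO and at 44.2, 45.1 and 44.8 CPM in knockout DMSO. With JQ1 it was at 193, 187 and 180 CPM in wild type and at 96.4, 92.3 and 105 CPM in knockout, which is the range of wild-type cells without drug. It was 2.17-fold lower in knockout DMSO (−1.12 ± 0.07, edgeR adjusted p = 9.15e-08) and 1.91-fold lower in knockout JQ1 (−0.93 ± 0.07, adjusted p = 3.99e-07). JQ1 raised it by 0.94 ± 0.07 in wild type and 1.13 ± 0.07 in knockout.

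BNIP3, the mitophagy receptor related to BNIP3L, was at 110, 102 and 108 CPM in wild-type DMSO and at 78.1, 64.0 and 63.2 CPM in knockout DMSO. With JQ1 it was at 167, 175 and 177 CPM in wild type and at 150, 130 and 133 CPM in knockout. The 4 groups did not overlap. It was lower by 0.64 ± 0.08 in knockout DMSO (edgeR adjusted p = 0.000126) and by 0.33 ± 0.08 in knockout JQ1 (adjusted p = 0.0174, lost under 4 of 22 alternatives), and rose with JQ1 by 0.69 ± 0.08 and 1.01 ± 0.08. The related BNIP3L differed between genotypes by 0.03 and 0.11 and did not pass. The 38 BNIP3 pseudogene symbols held 2.95 to 8.67% of the summed counts, so its level is less certain than that of BNIP3L.

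EGLN3, an oxygen-sensing prolyl hydroxylase that HIF itself induces, was near the limit of detection, at 0.715, 0.602 and 0.495 CPM in wild-type DMSO and 0.256, 0.172 and 0.176 CPM in knockout DMSO. With JQ1 it was at 0.565, 1.08 and 0.444 CPM in wild type and 0.305, 0.203 and 0.253 CPM in knockout. All knockout libraries lay below all wild-type libraries. The log2 fold changes were −1.56 ± 0.41 in DMSO and −1.41 ± 0.39 in JQ1 (edgeR adjusted p = 0.0273 and 0.0381), and the calls were lost under 7 and 16 of 22 alternatives, DESeq2 among them in each case. Its pseudogene symbol held 14.7 to 61.5% of the counts of both.

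PFKFB4, whose values are given above, was lower in the knockout by 0.54 ± 0.11 in DMSO and 0.52 ± 0.10 in JQ1 (edgeR adjusted p = 0.00517 and 0.00508), without overlap. HIF1A was lower in knockout JQ1 by 0.44 ± 0.08 (adjusted p = 0.00289), and its DMSO difference of −0.21 ± 0.08 did not pass (adjusted p = 0.161). PDK1 was at 54.3 ± 2.36 CPM (SD, n = 3) in wild-type DMSO and 39.8 ± 2.75 CPM in knockout DMSO, a fall of 0.45 ± 0.07 (adjusted p = 0.000786). In JQ1 the PDK1 difference was −0.15 ± 0.07 and did not pass.

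Of the 15 glycolytic enzymes, 5 passed between genotypes in DMSO, 2 higher and 3 lower, against 7.92% of all genes. HK1 was higher in the knockout by 0.26 ± 0.05 (edgeR adjusted p = 0.00467) and HK2 lower by 0.20 ± 0.06 (adjusted p = 0.0427, lost under 14 of 22 alternatives). ENO1 was higher by 0.19 ± 0.04 (adjusted p = 0.0181, lost under 5 of 22 alternatives) and ENO2 lower by 0.51 ± 0.07 (adjusted p = 0.000201). The HK2 to HK1 ratio of counts was 0.695 in wild-type DMSO, 0.504 in knockout DMSO, and 0.683 and 0.690 in the JQ1 groups (means, n = 3). ALDOC was lower by 0.30 ± 0.07 (adjusted p = 0.0118, lost under 3 of 22 alternatives). The remaining 10 enzymes, GAPDH, PKM and TPI1 among them, differed by −0.22 to 0.15 and did not pass. No transporter passed between genotypes in either treatment in the main edgeR fit. In JQ1, SLC2A3 passed with DESeq2 (0.20, adjusted p = 0.0418), and SLC16A3 in edgeR without the low-count filter (−0.43, adjusted p = 0.023). SLC16A3 also passed in JQ1 without wild-type DMSO replicate 1. Without knockout JQ1 replicate 3, SLC2A3 (0.22) and SLC16A3 (−0.50) passed in JQ1.

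**Figure D4:**
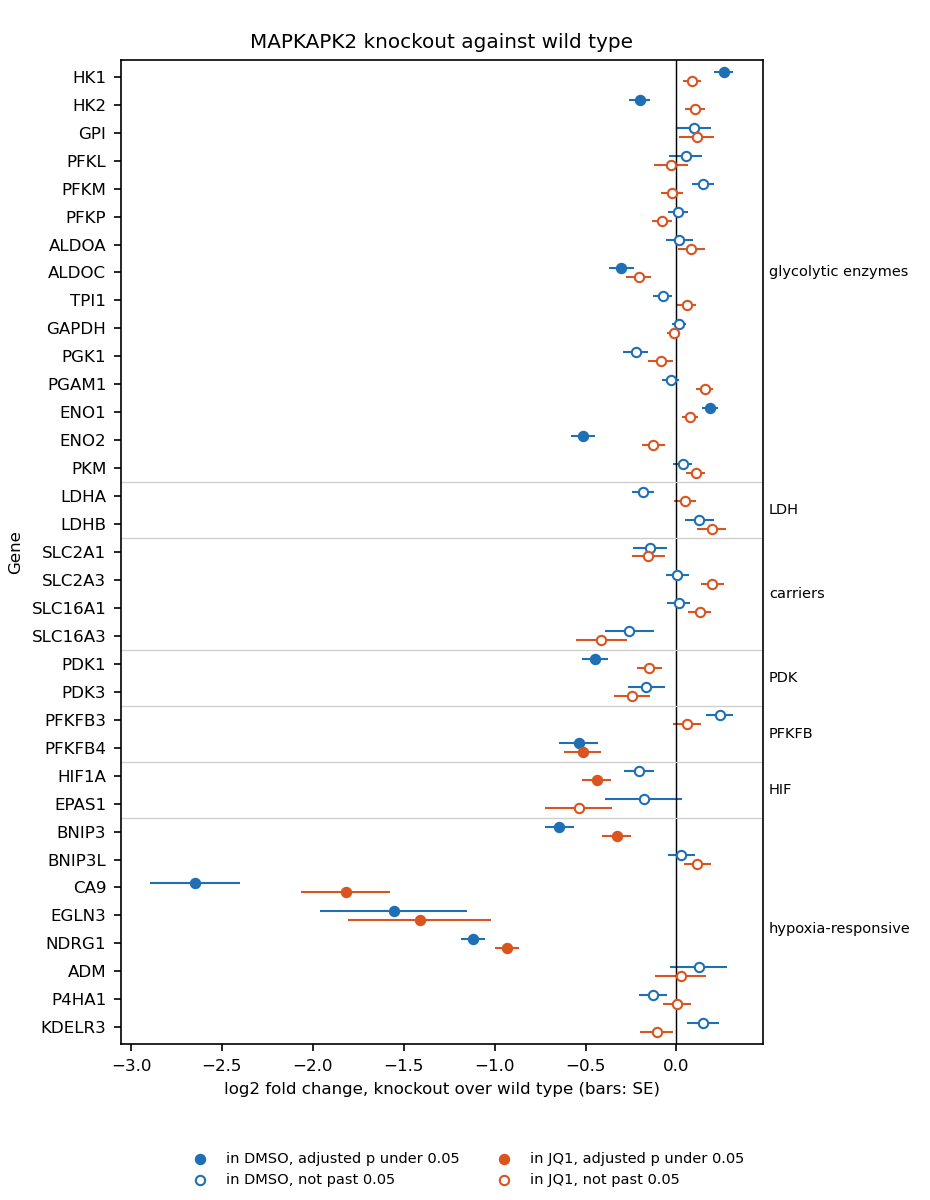
Log2 fold change of knockout over wild type (horizontal axis) for each of the 35 genes (vertical axis, grouped by role) in DMSO (blue) and in JQ1 (orange), with SE bars and filled points for adjusted p under 0.05. CA9, EGLN3 and NDRG1 lie farthest left, from −2.65 to −0.93, and most enzymes and carriers lie near 0.

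The difference in JQ1 response between the genotypes was tested as an interaction. None of the 35 members passed in edgeR's quasi-likelihood test, against 0.134% of all genes, 0.0323% with a larger and 0.101% with a smaller value in the knockout, and 9 members had an unadjusted p under 0.05, as did 1817 of the 21698 genes. DESeq2 called 1 member, ENO2, with an interaction of 0.37 and adjusted p = 0.027, against 1.09% of all genes it tested, whereas edgeR gave 0.39 ± 0.09 and adjusted p = 0.203. The other members with an unadjusted p under 0.05 in edgeR were HK1 (−0.17), HK2 (0.30), PGAM1 (0.19), LDHA (0.23), SLC2A3 (0.19), PDK1 (0.30), BNIP3 (0.32) and CA9 (0.83). For GAPDH the interaction was −0.03 ± 0.05, for SLC2A1 −0.01 ± 0.13 and for PFKFB4 0.02 ± 0.15.

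Genes around these pathways were read from lists of further members. Of 24 other hypoxia-responsive genes tested, 12 were higher and 2 lower with JQ1 in wild type, against 16.9% and 16.2% of all genes, and 13 and 2 in knockout, against 16.7% and 17.8%. ANGPTL4, a secreted inhibitor of lipoprotein lipase, rose from 3.41 ± 0.37 to 32.6 ± 1.70 CPM in wild type and from 1.38 ± 0.34 to 19.0 ± 3.73 CPM in knockout (SD, n = 3). P4HA2, DDIT4 and VEGFA, the vascular growth factor, rose by 0.87, 0.81 and 0.76 on the log2 scale in wild type and by 0.92, 1.01 and 0.91 in knockout. Between genotypes in DMSO 5 of the 24 were lower and 1 higher, against 4.44% and 3.47% of all genes. The lower genes were STC2 (−1.36 ± 0.12), ANGPTL4 (−1.30 ± 0.20), PPFIA4 (−0.77 ± 0.14), RORA (−0.74 ± 0.17) and VEGFA (−0.40 ± 0.09), and BHLHE40 (0.35 ± 0.09) was higher. STC2 also fell with JQ1, by 0.80 and 0.69. In JQ1 4 of the 24 were lower in the knockout and 1 higher, against 5.56% and 3.01% of all genes.

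Of 13 regulators of the HIF pathway, 5 were higher and 1 lower with JQ1 in wild type, and 6 and 2 in knockout, beside the same shares of all genes (33.1% and 34.4% in either direction). ARNT2, a dimer partner of HIF alpha subunits, fell by 1.27 ± 0.06 in wild type, from 318 ± 6.61 to 132 ± 5.82 CPM, and by 1.22 ± 0.06 in knockout. ELOB, a subunit of the VHL ubiquitin ligase, rose by 0.60 and 0.55, and EGLN1, the main HIF prolyl hydroxylase, by 0.36 and 0.44. In the knockout EGLN1 was lower by 0.56 ± 0.06 in DMSO and 0.48 ± 0.06 in JQ1 (edgeR adjusted p = 1.72e-05 and 6.21e-05), and CITED2, which competes with HIF for a coactivator, by 0.45 and 0.36. EGLN1 lies beyond MAPKAPK2 toward the end of the long arm of chromosome 1, whereas none of the 35 members does; whether position bears on its level was not tested.

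Of 13 other glycolytic enzymes and isozymes tested, 5 were higher and 2 lower with JQ1 in wild type, and 5 and 4 in knockout, against 33.1% and 34.4% of all genes in either direction. PGM1, which links glycogen to glycolysis, rose from 58.6 ± 3.64 to 111 ± 5.99 CPM in wild type and from 58.0 ± 0.94 to 112 ± 4.33 CPM in knockout. HKDC1, a further hexokinase, fell by 2.20 ± 0.17 and 1.85 ± 0.17 from under 5 CPM, and MINPP1, which can act on a glycolytic bisphosphate, rose by 0.46 and 0.38. PFKFB2, the isozyme best known from heart, fell by 0.58 ± 0.10 in wild type and 1.02 ± 0.11 in knockout, and with JQ1 was lower in knockout than in wild type by 0.69 ± 0.11; it too lies beyond MAPKAPK2 on chromosome 1. Between genotypes in DMSO 1 of the 13 passed, against 7.92% of all genes. It was PGAM2, which was under 0.5 CPM in every group.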

How the data were processed

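Per the labels' protocols, total RNA was depleted of ribosomal RNA and made into directional libraries. Per the submitters' processing notes, the tools included Trim Galore, cutadapt, FastQC, MultiQC, kallisto and DESeq2, with genome build GRCh38.p10; the annotation and the use of strand are not given in the sources used here, so antisense and pseudogene reads may be shared with a member. Estimated counts per symbol, which need not be whole, were deposited by the authors in a table, beside a table of normalized signal. A factor per gene and library was computed here as the rounded count divided by that signal.

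Counts were rounded to whole numbers, although testing had been planned for whole counts. Genes were kept by filterByExpr over the 4 groups (21698 genes) and scaled by TMM (factors 0.926 to 1.06). All 12 libraries entered a single edgeR quasi-likelihood fit with a term per group, with Benjamini-Hochberg adjustment over all tested genes and a threshold of 0.05 (edgeR 4.0.16, limma 3.58.1, DESeq2 1.42.0, R 4.3.3). Fold changes used a prior count of 0.125, and SEs were derived from the F statistic of each test. Tests are two-sided. Levels per kilobase used the longest principal transcript of each symbol in GENCODE release 29, which may not be the form expressed. Members, lists and the naming rule were chosen with earlier results of these data known. Sample values are given for up to 6 called members per direction and contrast with the highest absolute change and for HIF1A, EPAS1, LDHA, LDHB, SLC2A1 and GAPDH; from each list, up to 3 called genes with the smallest adjusted p are named, except 1 that is not reported here. The genes of the interaction with an unadjusted p under 0.05, and RORA, VEGFA and BHLHE40 were named after their values were seen. Depth limits EGLN3 and EPAS1 most; p-values reflect the libraries' spread. The authors' normalized signal entered only alternatives, as log2(signal + 1) in limma or as offsets in edgeR. The 22 alternatives were other scalings, tests, filters, samples in the fit, a replicate block, a stricter threshold and each library left out.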

Additional observations from a re-analysis of the deposited data

How the results depend on the processing

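Among 74 called results for single members, 58 held their call under every alternative run, 16 lost it under at least 1, and none reversed; the value that moved most changed 1.36-fold. The number of members called with JQ1 stayed at 25 to 28 in wild type and 27 to 31 in knockout. Between genotypes in DMSO it was 11. Under the alternatives other than leaving a library out it was 7 to 14, 7 being with adjusted p under 0.01. Members added there included PFKFB3 with DESeq2 (0.26, adjusted p = 0.0173) and PGK1 with library totals alone (−0.27, edgeR adjusted p = 0.034). With libraries left out the number ran from 7 (without knockout DMSO replicate 3) to 15 (without knockout JQ1 replicate 3). Between genotypes in JQ1 it was 6. It was 4 to 10 with libraries left out, 10 being without knockout JQ1 replicate 3, and 4 to 8 under the other alternatives. For the interaction it was 0, and 1 with DESeq2 (ENO2, 0.37, adjusted p = 0.027). Leaving out 4 abundant noncoding RNAs, which took 9.42 to 14.6% of counts, changed no count of members. MAPKAPK2 in knockout DMSO ran from −2.90 to −2.75.

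The replicate numbers did not pair the libraries: over 18 same-numbered pairs the correlation of deviations ran from −0.115 to 0.0786. With the replicate block, members called were 27, 29, 10, 5 and 0 in the 5 contrasts in the order given above, and MAPKAPK2 was at −2.85. Calls lost under the block were HK1 with JQ1 in knockout (adjusted p = 0.0504), HK2 in knockout DMSO (0.0772) and EGLN3 in knockout JQ1 (0.0552). The cause of calls lost under other settings was not tested. With library totals alone, PFKM (−0.21), PDK1 (−0.24) and CA9 (−0.56) became lower calls with JQ1 in wild type, and SLC2A3 in wild type and PDK3 and HIF1A in knockout also missed the threshold. Low counts limit EGLN3, which rested on 5 to 29 counts per library.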

Other observations

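With JQ1, 33.1% of all tested genes passed in wild type (16.9% higher, 16.2% lower) and 34.4% in knockout (16.7% higher, 17.8% lower), and the counts here are read beside those shares. Of 8 genes of the pentose phosphate pathway, which makes NADPH and ribose, 4 were higher in wild type and 3 in knockout, and none was lower. PGD and TALDO1 rose by 0.75 and 0.39 on the log2 scale in wild type and by 0.65 and 0.33 in knockout. PGD was also higher in knockout DMSO, by 0.18 ± 0.05 (edgeR adjusted p = 0.0477). Of 12 genes that bring pyruvate into the mitochondrion and on to acetyl-CoA or oxaloacetate, 4 were higher and 5 lower in each genotype. The carrier subunits MPC1 and MPC2 rose by 0.61 and 0.45 in wild type and 0.87 and 0.55 in knockout, and PDHB of the dehydrogenase complex by 0.36 and 0.39. The kinases PDK4 and PDK2 fell, by 0.47 and 0.40 in wild type and 0.55 and 0.77 in knockout, whereas PDK3 of the main set rose. PDK4 was higher in the knockout in both treatments, by 0.35 ± 0.07 and 0.27 ± 0.08.

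Of 15 other sugar and monocarboxylate carriers, 2 were higher and 5 lower with JQ1 in wild type, and 2 and 7 in knockout. The inositol carrier SLC2A13 rose by 0.80 and 0.91 and BSG, the chaperone of lactate carriers, by 0.54 and 0.43. SLC16A5 fell by 0.72 and 0.95, and SLC16A9 went from 1.17 ± 0.44 to 0.154 ± 0.10 CPM in wild type (SD, n = 3). SLC2A10 and SLC16A6 were lower in knockout DMSO, by 0.92 ± 0.15 and 1.21 ± 0.20 (edgeR adjusted p = 0.00138 and 0.00109). Among 8 regulators tied to glucose sensing or BET proteins, 2 were higher with JQ1 in each genotype, TXNIP by 0.77 and 0.47 and PPARGC1A by 1.34 and 1.23 from under 1 CPM, and MLX was lower in knockout, by 0.22. With 8 genes, 2 higher is close to the share of all genes. In knockout DMSO 3 were higher than in wild type, against 3.47% of all genes: ARRDC4 by 0.64 ± 0.11, MYC by 0.50 ± 0.11 and TXNIP by 0.34 ± 0.08. MYC differed with JQ1 by −0.14 and −0.27, neither of which passed. These lists were chosen with earlier results of the data known.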
